A study of Oryza sativa with 9 samples.

Results

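The comparison described here set roots of the rice cultivar SR86 grown in sea water against roots of the rice strain R1 grown in fresh water. Strain and water differ together between these groups, so a difference that comes with the strain and one that comes with the water cannot be told apart from the 6 libraries alone. The members are the nuclear loci, whose LOC_Os names carry a chromosome number, with a mean of at least 0.5 FPKM (fragments per kilobase of transcript, scaled to the mapped reads of the library) over the 6 libraries. They number 23678 of the 57624 nuclear loci, in a table of 57931 features. Sea Rice 86 (SR86) is a salt-tolerant cultivar, and R1, labelled as normal rice, is a hybrid of japonica and indica with low salt tolerance that does not survive in sea water. The labels give both as japonica, whereas the study places SR86 in indica. Libraries were made from roots harvested 1 month after planting, as 3 biological replicates each of SR86 in sea water (SR86 SW), SR86 in fresh water (SR86 FW) and R1 in fresh water (R1 FW). The SR86 FW libraries stand beside the others as levels and took no part in the test. R1 in sea water was not analysed here.

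Salt harms roots through osmotic stress and through sodium that enters with water and competes with potassium. Rice roots are known to limit it by barriers in the endodermis and exodermis, where lignin and suberin are laid into the walls, by sodium and potassium transporters, by protective proteins such as dehydrins, and by signals such as abscisic acid. Lines of the same crop also differ by inheritance, most of all in gene families that evolve quickly, such as resistance proteins, and in transposable elements.

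Low values step by what 1 read is worth. From these steps the SW libraries were estimated to be 1.75 to 2.41 times as deep as R1 FW1. The R1 FW libraries were put at 1.00 to 1.67 times. The SW estimates rest on 41 to 48 loci each, and those of R1 FW2 and R1 FW3 on 397 and 86. The SW estimates are thus rough, and the study gives a single approximate read number for all samples. Across loci, replicates correlated at 0.943 to 0.966 in SR86 SW and at 0.983 to 0.995 in R1 FW, and loci are not independent replicates. SR86 SW3 stood apart from SW1 and SW2, correlating with them at 0.943 while those 2 correlated at 0.966. The median SD of log2 values was 0.24 in SR86 SW and 0.12 in R1 FW. Markers of green shoot tissue (chlorophyll-binding, photosystem and Rubisco proteins) summed to 37.97 to 48.97 FPKM in SR86 SW, 84.5 to 198 FPKM in SR86 FW and 33.3 to 56.6 FPKM in R1 FW. Of these 15 loci 1 was called, at a higher level in SR86 SW, and none was without SR86 SW1, R1 FW1 or R1 FW3. The calls were 2 higher and 1 lower without SR86 SW2, 1 higher and 1 lower without SR86 SW3, and 0 higher and 1 lower under both rescalings described below. The 8 DUF588 loci, a family that includes the CASP proteins of the endodermal Casparian strip, summed to 78.5 to 135 FPKM in SR86 SW, 86.1 to 126 FPKM in SR86 FW and 45.0 to 59.6 FPKM in R1 FW. Of them 4 were higher in SR86 SW and 0 lower. The higher loci numbered 3 without SR86 SW2 or any 1 of the R1 FW libraries, and 1 was lower without SR86 SW3 and under both rescalings. No member was listed at 0 in any group, so transcripts of this family were present in both roots. The annotation does not tell its CASP proteins from other members. In whole roots, fewer cells of a type and less RNA per cell cannot be told apart.

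Of the 23678 loci, 4635 were called, at a Benjamini-Hochberg adjusted p under 0.05 in limma and a difference of at least 2-fold (19.6%). The higher group in SR86 SW held 2903 loci (12.3%) and the lower group 1732 (7.31%). In 4631 of the called loci the 3 SW libraries and the 3 R1 libraries did not overlap, and of all loci tested 53.7% showed no overlap. The median change of the called loci was 1.63 on the log2 scale in the higher group and -1.64 in the lower group. A log2 fold change of at least 4 was reached by 98 higher loci, and one of -4 or below by 74 lower loci. Higher loci thus made up 62.6% of the calls, and this share depended on the scaling, since quantile normalization gave 2210 higher and 2195 lower loci (50.2% higher) and median-ratio size factors gave 2616 and 1953 (57.3%). The median of all loci tested was 0.12 on the log2 scale, and it was -0.02 after quantile normalization, so differences near this size carry no direction of their own. Counting on a mean over both groups let 1703 loci in through SR86 SW alone and 801 through R1 FW alone, of which 1020 were called higher and 519 lower. At the edge of the filter, LOC_Os01g11150 was just inside with a mean of 0.187 FPKM in SR86 SW and 0.813 FPKM in R1 FW, and LOC_Os02g03210 just outside with means of 0.987 and 0.01 FPKM in SR86 SW and R1 FW. With 3 libraries against 3, an exact permutation test of 1 locus cannot give a p below 0.1, so the calls rest on the model over all loci.

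**Figure D1:**
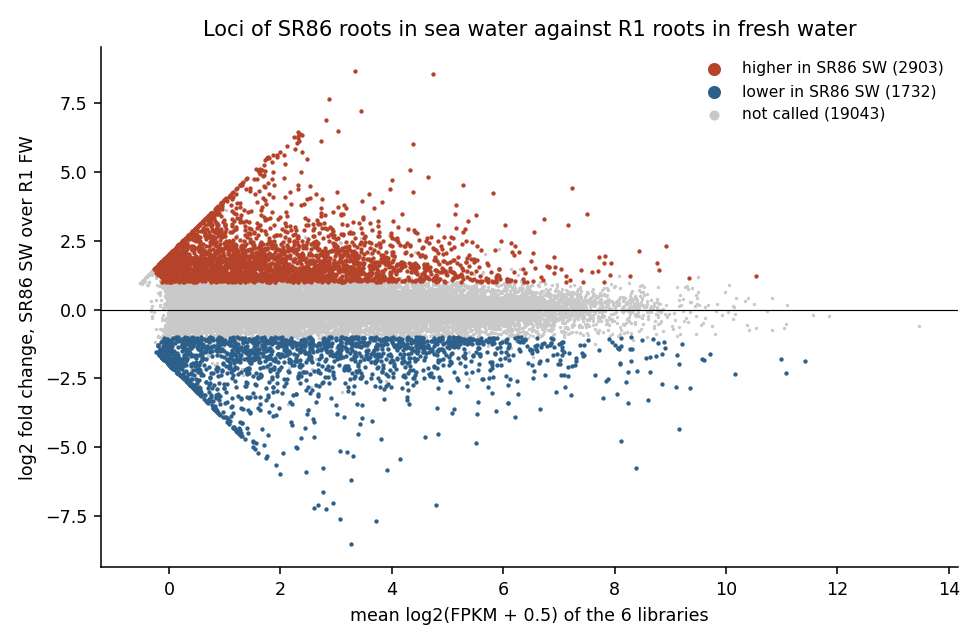
Each point is 1 of 23678 loci, with its mean log2(FPKM + 0.5) over the 6 libraries across and its log2 fold change of SR86 SW over R1 FW up. The 2903 higher and 1732 lower loci are coloured, and the straight edges of the cloud at left are loci at or near 0 FPKM in 1 group.

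Loci with large differences were mostly near 0 in one of the groups, and a fold change against such a group depends on the 0.5 FPKM added before the logarithm. The largest rise with a named product was in LOC_Os10g18760, a dirigent protein, a family that guides the coupling of monolignol radicals in the making of lignin and lignans. It had 107, 112 and 92.1 FPKM in SR86 SW, 0.67, 0.2 and 0 FPKM in SR86 FW and 0, 0.05 and 0 FPKM in R1 FW, a log2 fold change of 7.65 (standard error 0.12, adjusted p = 1.26e-06). The transcript was thus near 0 in all 6 fresh water libraries. LOC_Os10g18820, another dirigent locus with a nearby number and named after its values were seen, had 3.41, 17.02 and 10.4 FPKM in SR86 SW and was listed at 0 in every R1 FW library. The next rises included LOC_Os09g39160 (thiol protease SEN102), a class of enzyme that degrades proteins in the vacuole during senescence. It had 71.9, 30.9 and 31.6 FPKM in SR86 SW, 0.07, 1.59 and 7.22 FPKM in SR86 FW and 0.07, 0.04 and 0 FPKM in R1 FW, a log2 fold change of 6.28 (standard error 0.33, adjusted p = 7.71e-05). LOC_Os01g71380, a family 17 glycosyl hydrolase (enzymes that cut beta-1,3-glucans such as callose), had 38.3, 59.1 and 20.2 FPKM in SR86 SW, 3.83, 2.61 and 2.18 FPKM in SR86 FW and 0.23, 0.2 and 0 FPKM in R1 FW, a log2 fold change of 5.84 (standard error 0.39, adjusted p = 0.000177).

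Other large rises were in loci that SR86 roots also held in fresh water. LOC_Os08g09860 (hydroxyacid oxidase 1, a peroxisomal enzyme that makes hydrogen peroxide) had 40.7, 50.95 and 48.9 FPKM in SR86 SW, 21.4, 28.6 and 42.99 FPKM in SR86 FW and 0, 0.1 and 0 FPKM in R1 FW, a log2 fold change of 6.47 (standard error 0.15, adjusted p = 4.49e-06). LOC_Os04g35010, a protein with the helix-loop-helix domain of a large class of transcription factors, had 42.8, 44.8 and 38.8 FPKM in SR86 SW, 34.7, 44.6 and 33.6 FPKM in SR86 FW and 0.13, 0.14 and 0.04 FPKM in R1 FW, a log2 fold change of 6.14 (standard error 0.13, adjusted p = 3.94e-06). Both loci were thus well above 0 in all 6 SR86 libraries and near 0 in R1 FW. The defensin-like LOC_Os11g47120 (DEFL48), of a family of small antimicrobial peptides, had 25.2, 23.9 and 18.4 FPKM in SR86 SW and 17.8, 15.4 and 23.3 FPKM in SR86 FW, and was listed at 0 in all 3 R1 FW libraries. LOC_Os02g12480, named after its values were seen, had 498, 481 and 572 FPKM in SR86 SW, 378, 531 and 538 FPKM in SR86 FW and 1.1, 1.04 and 0.55 FPKM in R1 FW, a log2 fold change of 8.55 (standard error 0.18, adjusted p = 3.69e-06). This locus is named without a function, and so is LOC_Os10g04800, which had 197, 218 and 198 FPKM in SR86 SW and was listed at 0 in R1 FW. Both strains were mapped to one set of transcripts, so at loci near 0 in 1 strain, low expression and diverged or absent sequence cannot be told apart.

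Among the falls, LOC_Os07g25050 and LOC_Os07g24830 are annotated as thionin-like peptides, small cysteine-rich toxins against microbes. LOC_Os07g25050 was listed at 0 in every SR86 library of both waters and had 191, 165 and 194 FPKM in R1 FW. LOC_Os07g24830 was listed at 0 in SR86 SW and had 76.5, 71.5 and 71.9 FPKM in R1 FW. The same pattern, with both SR86 groups near 0, held for LOC_Os06g23870 (acyl-CoA dehydrogenase domain protein, of a class of fatty acid oxidation enzymes). It had 0.02, 0.05 and 0.05 FPKM in SR86 SW, 0.24, 0 and 0.1 FPKM in SR86 FW and 74.5, 89.4 and 63.4 FPKM in R1 FW, a log2 fold change of -7.13 (standard error 0.15, adjusted p = 3.86e-06). LOC_Os03g01140 (acyl-activating enzyme 11) had 0.4, 0 and 0.3 FPKM in SR86 SW and 41.7, 44.6 and 40.8 FPKM in R1 FW, a log2 fold change of -5.91 (standard error 0.23, adjusted p = 2.52e-05). LOC_Os10g41980 (RALFL26) encodes a rapid alkalinization factor, a secreted peptide hormone that in Arabidopsis restrains root cell growth through a receptor kinase. It had 33.8, 44.7 and 57.8 FPKM in SR86 SW, 82.3, 116 and 136 FPKM in SR86 FW and 2447, 2752 and 2204 FPKM in R1 FW, a log2 fold change of -5.77 (standard error 0.21, adjusted p = 1.96e-05). Its relative LOC_Os06g29730 (RALFL28) had 310.1, 522 and 819 FPKM in SR86 SW, 904, 1219 and 729 FPKM in SR86 FW and 2628, 2721 and 2436 FPKM in R1 FW, a log2 fold change of -2.35 (standard error 0.35, adjusted p = 0.00382). Both RALF loci were thus lower in every SW library than in R1 roots, where they were abundant. LOC_Os01g03330 (BBTI3, a Bowman-Birk inhibitor of trypsin-like proteases) had 4.59, 1.81 and 1.14 FPKM in SR86 SW, 1.03, 0.54 and 1.91 FPKM in SR86 FW and 119, 91.3 and 141 FPKM in R1 FW, a log2 fold change of -5.44 (standard error 0.41, adjusted p = 0.000282).

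**Figure D2:**
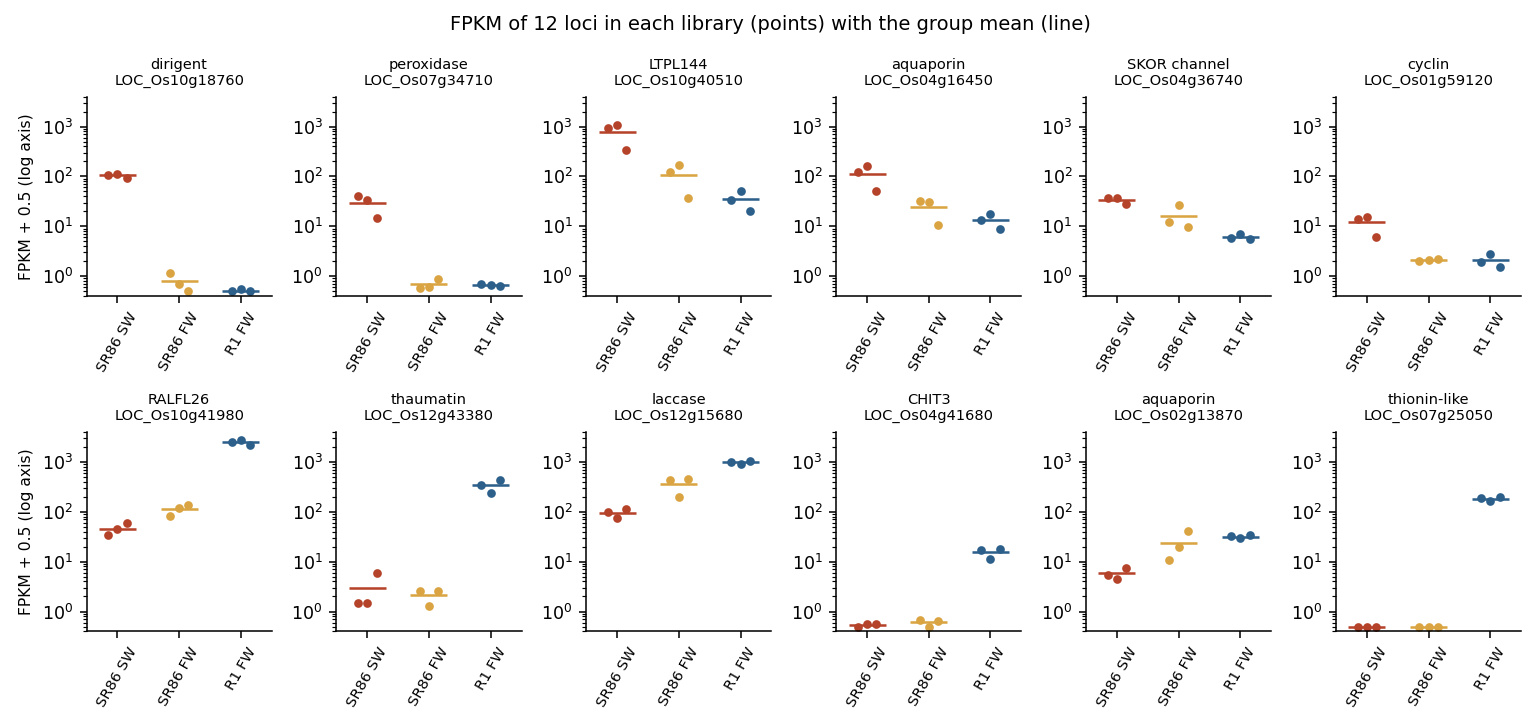
FPKM plus 0.5 on a log axis for 12 loci named in the text, with 1 point per library, the group mean as a line, and SR86 SW, SR86 FW and R1 FW side by side. In the upper row the SW points lie above all R1 points, and in the lower row below them, with LOC_Os10g18760 at 104 FPKM in SW and LOC_Os10g41980 at 45.5 FPKM on average.

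To read the calls by function, 49 lists were drawn from the annotation text of the study's tables. Those tables cover 6246 of the loci tested. They list loci that the study called between SR86 FW and R1 FW or between SR86 SW and SR86 FW. Both comparisons use SR86 FW, so a position of SR86 FW away from the other groups is partly built into the lists. Among these annotated loci 50.0% were called, 30.5% higher and 19.6% lower, and each list is read against these shares. A list's counts are therefore not independent evidence of its direction. No list was tested as a set.

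**Figure D3:**
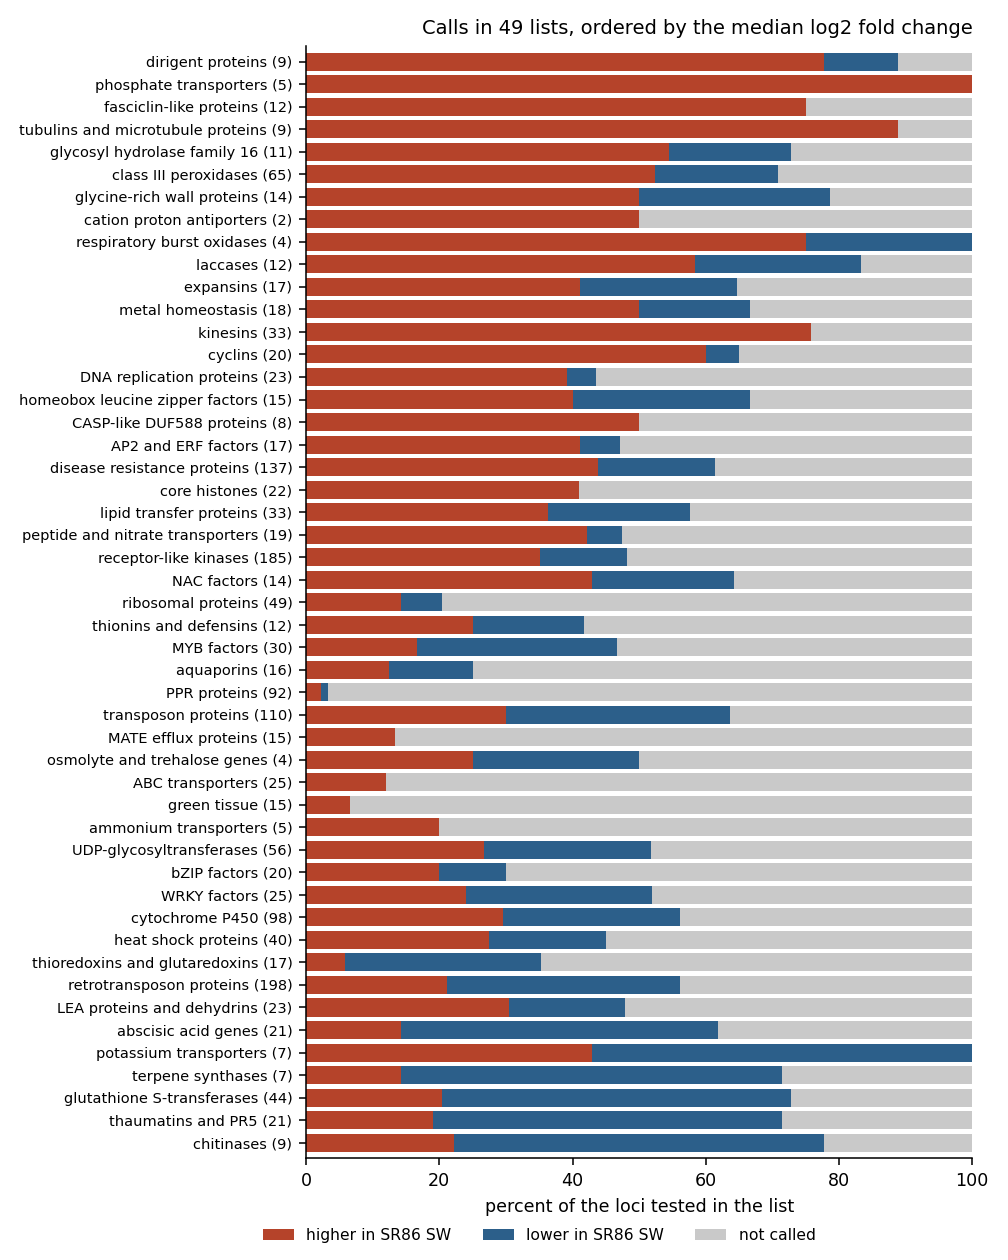
Each bar is 1 of 49 lists, with the number of loci tested in brackets and the percent of them called higher in SR86 SW, called lower or not called. Lists run from the highest median log2 fold change at the top (dirigent proteins, 2.70) to the lowest (chitinases, -1.73).

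In most lists of the cell wall more loci rose than fell, and in several of them SR86 SW3 lay below SW1 and SW2. Of 65 class III peroxidases, secreted enzymes that oxidise monolignols and stiffen walls with hydrogen peroxide, 34 rose, 12 fell and 19 were not called, with a median log2 fold change of 1.64 (70.8% called, beside 50.0% of annotated loci). The summed level of the family did not follow these counts, at 3076, 4154 and 2801 FPKM in SR86 SW, 2003, 1986 and 2057 FPKM in SR86 FW, and 3560, 3404 and 3644 FPKM in R1 FW. The sums of SR86 SW and R1 FW thus overlapped. LOC_Os04g59150, the most abundant peroxidase of R1 and named after its values were seen, had 269, 474 and 602 FPKM in SR86 SW and 798, 709 and 857 FPKM in R1 FW, and was not called (a log2 fold change of -0.88, standard error 0.30, adjusted p = 0.059). The largest rise was in LOC_Os07g34710, with 39.3, 32.7 and 14 FPKM in SR86 SW, 0.09, 0.12 and 0.37 FPKM in SR86 FW and 0.2, 0.18 and 0.15 FPKM in R1 FW, a log2 fold change of 5.31 (standard error 0.37, adjusted p = 0.000212). The largest fall was in LOC_Os06g33090, with 0.91, 0.09 and 0 FPKM in SR86 SW and 9.56, 6.78 and 11.2 FPKM in R1 FW, a log2 fold change of -3.67 (standard error 0.42, adjusted p = 0.00136). Of 6 peroxidases that the study names, LOC_Os01g36240 rose to 32.2, 25.7 and 41.9 FPKM in SR86 SW, against 2.01, 1.6 and 1.95 FPKM in R1 FW (a log2 fold change of 3.82, standard error 0.19, adjusted p = 6.41e-05), and LOC_Os04g53640 and LOC_Os07g47990 rose as well, by 3.13 and 3.81 on the log2 scale. LOC_Os01g22370, with 67.4, 86.2 and 63.95 FPKM in SR86 SW and 72.2, 69.9 and 74.2 FPKM in R1 FW, was not called, nor was LOC_Os06g35520 (log2 fold change 0.89, adjusted p = 0.16). LOC_Os01g22352 was lower, at 11.4, 31.04 and 77.4 FPKM in SR86 SW and 186, 196 and 179 FPKM in R1 FW (a log2 fold change of -2.61, standard error 0.62, adjusted p = 0.0194), a call that was lost without SR86 SW2 or any R1 FW library (adjusted p up to 0.0654). Without R1 FW1, R1 FW3 or SR86 SW2 the higher peroxidases numbered 17, 18 and 21.

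Dirigent proteins had the highest median, at 2.70 on the log2 scale, with 7 of 9 higher and 1 lower. Laccases, copper enzymes that polymerise lignin, split in another way, with 7 of 12 higher and 3 lower. Their summed level was 158, 140 and 182 FPKM in SR86 SW, 463, 256 and 513 FPKM in SR86 FW, and 1059, 974 and 1103 FPKM in R1 FW. One locus, LOC_Os12g15680, held most of that sum, at 97.1, 72.8 and 115 FPKM in SR86 SW, 428, 193 and 455 FPKM in SR86 FW and 991, 908 and 1037 FPKM in R1 FW, a log2 fold change of -3.38 (standard error 0.18, adjusted p = 7.88e-05). It was the most abundant laccase of all 3 groups and was lower in every SW library than in every R1 library. The laccase with the largest rise, LOC_Os01g62490, had 3.03, 4.02 and 1.99 FPKM in SR86 SW and 0.04, 0.02 and 0.03 FPKM in R1 FW, a log2 fold change of 2.69 (standard error 0.24, adjusted p = 0.000569). Expansins, which loosen walls during growth, rose in 7 of 17 and fell in 4. A split by annotation, made after the values were seen, placed all 4 falls among the 5 beta-expansins and all 7 rises among the 12 others. The beta-expansin LOC_Os09g29710 had 35.95, 47.6 and 80.4 FPKM in SR86 SW, 6.05, 12.3 and 70.9 FPKM in SR86 FW and 393, 248 and 502 FPKM in R1 FW, a log2 fold change of -2.81 (standard error 0.36, adjusted p = 0.00215). The expansin LOC_Os10g40730, named after its values were seen, by contrast had 53.1, 61.5 and 19.1 FPKM in SR86 SW and 7.28, 10.6 and 4.22 FPKM in R1 FW, a log2 fold change of 2.44 (standard error 0.50, adjusted p = 0.012). With 1 library left out the counts of higher and lower expansins ran from 2 and 1 without R1 FW3 and 2 and 2 without R1 FW1, over 3 and 3 without SR86 SW1 or SR86 SW2, to 12 and 4 without SR86 SW3.

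Fasciclin-like proteins, which are arabinogalactan proteins of the cell surface, rose in 9 of 12 with no fall. Their median difference from the R1 FW mean was 2.81, 2.85 and 0.75 on the log2 scale in SR86 SW1, SW2 and SW3, and 1.07, 0.20 and -0.21 in SR86 FW1, FW2 and FW3. SW1 and SW2 thus stood well above SW3 in this family. LOC_Os05g48900, the most abundant member in SW and named after its values were seen, had 208, 181 and 34.3 FPKM in SR86 SW and 14.5, 21.1 and 8.93 FPKM in R1 FW, a log2 fold change of 2.92 (standard error 0.71, adjusted p = 0.021). This call was lost without SR86 SW1, SR86 SW2, R1 FW1 or R1 FW3 (adjusted p up to 0.0796). Leaving out a library moved the count of higher members to 1 without R1 FW1, 2 without R1 FW3, 3 without SR86 SW1 or SR86 SW2 and 4 without R1 FW2, and it was 5 with no filter. Glycine-rich wall proteins, structural proteins of vascular and other walls, rose in 7 of 14 and fell in 4, the falls numbering 2 without any 1 of the R1 FW libraries. LOC_Os10g31530 had 246, 136 and 48.03 FPKM in SR86 SW, 3.77, 11.2 and 32.9 FPKM in SR86 FW and 3.28, 6.43 and 1.06 FPKM in R1 FW, a log2 fold change of 5.09 (standard error 0.73, adjusted p = 0.00325). Family 16 glycosyl hydrolases, among them enzymes that cut and rejoin xyloglucan, rose in 6 of 11 and fell in 2. LOC_Os10g42670 was the largest fall of these, with 18.1, 26.1 and 19.99 FPKM in SR86 SW, 148, 107 and 63.6 FPKM in SR86 FW and 73.03, 77.4 and 66.8 FPKM in R1 FW, a log2 fold change of -1.75 (standard error 0.15, adjusted p = 0.000417).

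Lipid transfer proteins carry lipids to the apoplast, where cutin and suberin are built. Of 33 loci, 12 rose and 7 fell, and the sum over the list was 3988, 3568 and 1506 FPKM in SR86 SW, 2315, 2152 and 1327 FPKM in SR86 FW, and 961, 1132 and 846 FPKM in R1 FW. LOC_Os10g40510 (LTPL144) had the highest SW mean of the list, with 922, 1078 and 337 FPKM in SR86 SW, 121, 169 and 36.2 FPKM in SR86 FW and 33.3, 51.2 and 19.8 FPKM in R1 FW, a log2 fold change of 4.40 (standard error 0.52, adjusted p = 0.00155). LOC_Os03g01300 (LTPL114), named after its values were seen, had 1009.5, 574 and 377 FPKM in SR86 SW and 52.1, 74.6 and 39.5 FPKM in R1 FW, a log2 fold change of 3.48 (standard error 0.39, adjusted p = 0.0013). The summed level of SW libraries was above every R1 library, and the lowest SW library was again SW3. The rises numbered 4 without R1 FW1 or R1 FW3 and 6 without SR86 SW2.

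In the lists of cell division and the cytoskeleton rises outnumbered falls, and most of the kinesins, cyclins and tubulins rose while most of the replication proteins and core histones were not called. Of 33 kinesins, motor proteins that move along microtubules and build the spindle and the cell plate, 25 rose and 0 fell (median log2 fold change 1.25, 75.8% called). Their sum was 230, 231 and 127 FPKM in SR86 SW, 52.8, 63.0 and 65.3 FPKM in SR86 FW, and 69.5, 71.4 and 66.6 FPKM in R1 FW. Every SW library was above every fresh water library of either strain. LOC_Os04g53760 had 21.7, 25.1 and 9.32 FPKM in SR86 SW, 5.15, 7.51 and 4.23 FPKM in SR86 FW and 2.4, 3.61 and 2.53 FPKM in R1 FW, a log2 fold change of 2.42 (standard error 0.37, adjusted p = 0.00416). Of 20 loci annotated as cyclins, cyclin-related proteins or cyclin-dependent kinases and their inhibitor, the regulators of the cell cycle, 12 rose and 1 fell. LOC_Os01g59120 (cyclin) had 13.7, 14.98 and 5.72 FPKM in SR86 SW, 1.54, 1.61 and 1.72 FPKM in SR86 FW and 1.39, 2.32 and 1.03 FPKM in R1 FW, a log2 fold change of 2.46 (standard error 0.40, adjusted p = 0.0052). The fall was in LOC_Os05g26020, with 0.61, 0.73 and 0.57 FPKM in SR86 SW and 7.26, 7.51 and 6.68 FPKM in R1 FW, and this cyclin was as low in SR86 FW, at 0.49, 0.64 and 0.52 FPKM. The count of higher cyclins was 6 without SR86 SW1, 5 without R1 FW1 and 4 without R1 FW3.

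The MCM2 to MCM7 subunits form the helicase that opens DNA for replication. In a split by annotation, made after the values were seen, 5 of 6 rose. MCM4 (LOC_Os01g36390) had 7.73, 7.78 and 3.86 FPKM in SR86 SW, 0.9, 0.64 and 1.05 FPKM in SR86 FW and 0.92, 0.95 and 1.35 FPKM in R1 FW, a log2 fold change of 2.10 (standard error 0.29, adjusted p = 0.00272). MCM2 (LOC_Os11g29380), MCM3 (LOC_Os05g39850), MCM5 (LOC_Os02g55410) and MCM6 (LOC_Os05g14590), named after their values were seen, had log2 fold changes of 1.94, 1.95, 1.70 and 1.92. MCM7 (LOC_Os12g37400) was under the 2-fold threshold at 0.96, with 5.79, 4.97 and 2.56 FPKM in SR86 SW and 1.96, 1.92 and 1.88 FPKM in R1 FW. In each of the 6 subunits SW3 was the lowest SW library, and it was above every R1 FW library. MCM9 (LOC_Os06g11500), which is outside this complex, was lower in SR86, with 0.69, 0.59 and 0.46 FPKM in SR86 SW, 0.48, 0.48 and 0.37 FPKM in SR86 FW and 3.45, 3.34 and 4.35 FPKM in R1 FW, a log2 fold change of -1.96 (standard error 0.17, adjusted p = 0.000503). Over the 23 replication proteins 9 rose and 1 fell, and the rises numbered 5 without SR86 SW2, 5 after quantile normalization, and 15 without SR86 SW3 or with 0.1 FPKM added. Of the 8 DNA polymerases among them, split off in the same way, 1 rose and 0 fell (median log2 fold change 0.87). Core histones rose in 9 of 22 with no fall, but in 2 without SR86 SW1, SR86 SW2, R1 FW1 or R1 FW3. Their sum was 1787, 1867 and 1481 FPKM in SR86 SW, 2648, 3364 and 2232 FPKM in SR86 FW, and 1354, 1560 and 1208 FPKM in R1 FW. Unlike the kinesin sum, it was highest in SR86 FW. Tubulins and microtubule-associated proteins rose in 8 of 9, a count of 3 without R1 FW1 or R1 FW3 and of 4 without SR86 SW1 or SR86 SW2. LOC_Os09g27700, a microtubule-associated protein named after its values were seen, had 82.04, 81.7 and 63.6 FPKM in SR86 SW, 30.5, 17.5 and 12.3 FPKM in SR86 FW and 13.4, 16.1 and 11.7 FPKM in R1 FW, a log2 fold change of 2.42 (standard error 0.15, adjusted p = 0.000155).

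**Figure D4:**
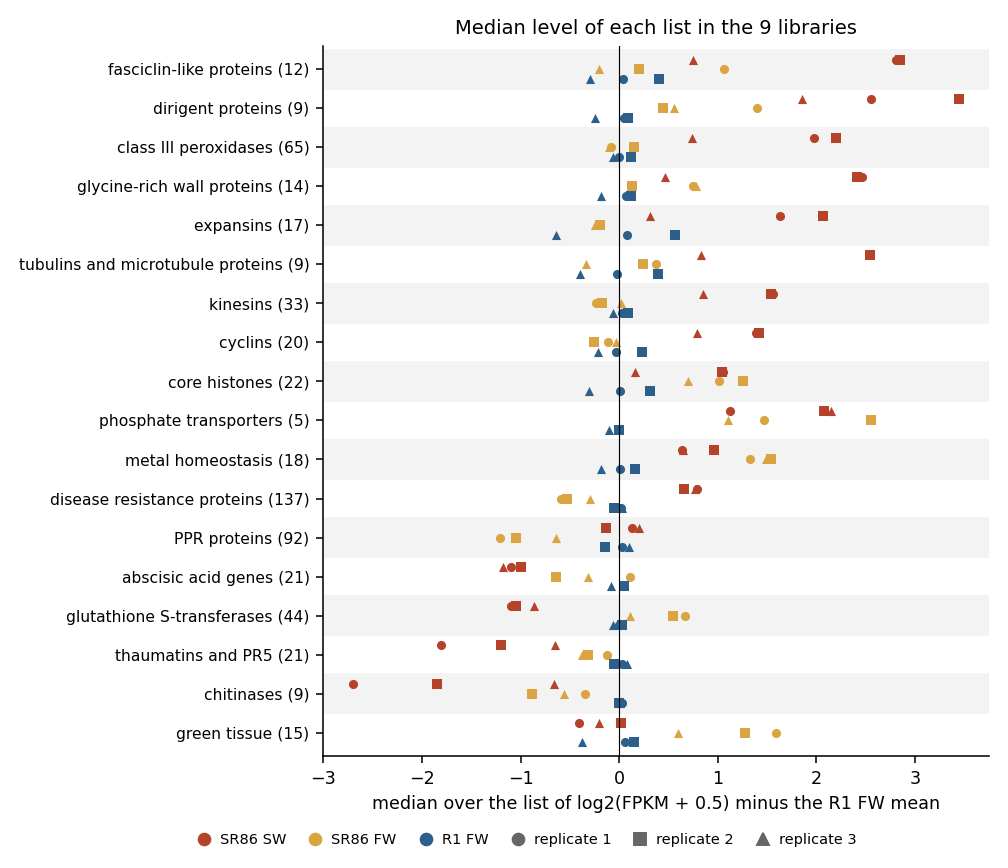
For 18 lists, each point is the median over the loci tested of log2(FPKM + 0.5) minus the R1 FW mean in 1 library, with SR86 SW above SR86 FW and R1 FW in each row and the replicate given by the marker. In the 9 uppermost lists, from fasciclin-like proteins to core histones, SW3 lies below SW1 and SW2, as in fasciclin-like proteins (2.81, 2.85 and 0.75), while SR86 SW of the disease resistance list stays together (0.79, 0.66 and 0.77).

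Transporters of water and ions moved locus by locus. Of 16 aquaporins, the water channels of the plasma membrane and vacuole, 2 rose, 2 fell and 12 were not called (25.0% called). LOC_Os04g16450 had 122, 163 and 49.5 FPKM in SR86 SW, 31.6, 29.9 and 10.01 FPKM in SR86 FW and 12.7, 17.1 and 8.36 FPKM in R1 FW, a log2 fold change of 2.97 (standard error 0.47, adjusted p = 0.00453). LOC_Os02g13870 went the other way, with 4.97, 4.01 and 7 FPKM in SR86 SW, 10.2, 19.4 and 40.8 FPKM in SR86 FW and 32.2, 28.7 and 33.1 FPKM in R1 FW, a log2 fold change of -2.48 (standard error 0.19, adjusted p = 0.000303). LOC_Os02g44630, an abundant aquaporin named after its values were seen, had 745, 1276 and 591 FPKM in SR86 SW, 1101, 1187 and 697 FPKM in SR86 FW and 488, 535 and 454 FPKM in R1 FW, above R1 in each SW library but not called (a log2 fold change of 0.75, standard error 0.29, adjusted p = 0.086). The counts of higher and lower aquaporins were 1 and 2 without SR86 SW1, R1 FW1 or R1 FW3, 1 and 3 without SR86 SW2, and 4 and 2 without SR86 SW3. All 7 potassium transporters and channels that were tested were called, 3 higher and 4 lower. The 2 channels were among the rises. LOC_Os04g36740, annotated as SKOR, a channel that in Arabidopsis releases potassium into the xylem, had 36.6, 36.3 and 28.1 FPKM in SR86 SW, 11.6, 25.7 and 9.29 FPKM in SR86 FW and 5.4, 6.36 and 5.09 FPKM in R1 FW, a log2 fold change of 2.48 (standard error 0.14, adjusted p = 0.000105). LOC_Os01g45990, annotated as AKT1, in Arabidopsis a channel for potassium uptake at the root surface, and named after its values were seen, had 62.97, 30.5 and 65.8 FPKM in SR86 SW, 5.01, 8.57 and 10.5 FPKM in SR86 FW and 14.3, 12.8 and 14.8 FPKM in R1 FW, a log2 fold change of 1.82 (standard error 0.29, adjusted p = 0.00493).

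All 4 falls among the 7 potassium channels and transporters were in loci annotated as potassium transporters. LOC_Os01g70490 had 0.97, 0.87 and 0.78 FPKM in SR86 SW, 1.67, 0.89 and 2.25 FPKM in SR86 FW and 6.54, 6.05 and 7.81 FPKM in R1 FW, a log2 fold change of -2.41 (standard error 0.15, adjusted p = 0.000155). LOC_Os03g37930, LOC_Os03g37840 and LOC_Os03g37830, named after their values were seen, are 3 loci with nearby numbers and had log2 fold changes of -2.31, -1.68 and -1.07, the last a call that was lost without SR86 SW2, R1 FW1 or R1 FW3 (adjusted p up to 0.0556) and with 1 FPKM added before the logarithm. LOC_Os06g45940, named after its values were seen, was the rise among the transporters, channels aside, with 4.87, 3.52 and 5.39 FPKM in SR86 SW, 0.51, 1.97 and 1.2 FPKM in SR86 FW and 1.87, 1.5 and 1.94 FPKM in R1 FW (a log2 fold change of 1.15, standard error 0.19, adjusted p = 0.00551), and at 0.86 after quantile normalization it was under the 2-fold threshold. Of 2 cation proton antiporters, LOC_Os05g31730 rose, with 9.19, 5.9 and 3.81 FPKM in SR86 SW, 0.67, 0.61 and 0.46 FPKM in SR86 FW and 0.51, 0.69 and 0.98 FPKM in R1 FW, a log2 fold change of 2.41 (standard error 0.32, adjusted p = 0.0024). Both antiporters were called without SR86 SW3. MATE proteins, which export organic molecules, were called in 2 of 15, both higher, led by LOC_Os08g43654 (log2 fold change 2.32, adjusted p = 0.00632). The MATE locus LOC_Os12g03260 had 1.02, 1.26 and 1.11 FPKM in SR86 SW and 0.61, 0.72 and 0.98 FPKM in R1 FW and was not called, and LOC_Os08g44870 was below the filter, at 0.22, 0.41 and 0.2 FPKM in SR86 SW, 3.37, 1.76 and 4.09 FPKM in SR86 FW and 0.05, 0.03 and 0.11 FPKM in R1 FW. ABC transporters were higher in 3 of 25 and lower in 0, or higher in 4 and lower in 2 without SR86 SW3, and higher in 2 without SR86 SW1, R1 FW1 or R1 FW2.

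Rises outnumbered falls among the phosphate transporters, the peptide and nitrate transporters and the metal homeostasis loci. All 5 inorganic phosphate transporters tested rose (median log2 fold change 2.18), a count of 3 without SR86 SW2 or any 1 of the R1 FW libraries and after quantile normalization. LOC_Os10g30770 had 7.58, 6.98 and 14.1 FPKM in SR86 SW, 2.52, 2.27 and 1.48 FPKM in SR86 FW and 1.41, 1.26 and 1.14 FPKM in R1 FW, a log2 fold change of 2.44 (standard error 0.27, adjusted p = 0.00122). LOC_Os04g10750, the most abundant of the 5 and named after its values were seen, had 30.3, 58.4 and 86.4 FPKM in SR86 SW, 107, 108 and 42.97 FPKM in SR86 FW and 19.7, 19.8 and 19.6 FPKM in R1 FW, a log2 fold change of 1.42 (standard error 0.35, adjusted p = 0.0219). This call was lost without SR86 SW2 or any R1 FW library (adjusted p up to 0.0731). Of 5 ammonium transporters 1 rose and 0 fell, or 1 rose and 1 fell without SR86 SW2, without R1 FW3, with 0.1 FPKM added or after quantile normalization. Of 19 peptide and nitrate transporters 8 rose and 1 fell. The high affinity nitrate transporter LOC_Os02g38230, named after its values were seen, had 46.2, 25.9 and 43.2 FPKM in SR86 SW, 38.3, 67.9 and 111 FPKM in SR86 FW and 12.7, 11.3 and 12.4 FPKM in R1 FW, a log2 fold change of 1.58 (standard error 0.22, adjusted p = 0.00283). LOC_Os01g04950 (peptide transporter PTR2) had 34.8, 38.6 and 39.8 FPKM in SR86 SW, 25.7, 20.3 and 13.1 FPKM in SR86 FW and 8.54, 8.71 and 8.96 FPKM in R1 FW, a log2 fold change of 2.05 (standard error 0.09, adjusted p = 3.4e-05). Among the 18 metal homeostasis loci, 9 rose and 3 fell. Nicotianamine synthases make the chelator that leads to the phytosiderophores by which grasses take up iron, and 3 of 3 rose. LOC_Os03g19427 had 4.23, 27.8 and 16.8 FPKM in SR86 SW, 8.6, 236 and 23.3 FPKM in SR86 FW and 1.15, 2.37 and 0.71 FPKM in R1 FW, a log2 fold change of 2.89 (standard error 0.68, adjusted p = 0.0187). It varied strongly between libraries of both SR86 groups, and its call was lost without R1 FW1 or R1 FW3 (adjusted p up to 0.0723) and in a fit of all 9 libraries. The metal loci numbered 4 higher without R1 FW1 and 5 without R1 FW3.

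Metallothioneins, small metal-binding proteins, were among the most abundant called loci in both directions, 3 of 10 being higher and 3 lower. LOC_Os11g47809 had 2859, 2280.2 and 1749 FPKM in SR86 SW, 2469, 3753 and 3875 FPKM in SR86 FW and 973, 1038 and 921 FPKM in R1 FW, a log2 fold change of 1.20 (standard error 0.23, adjusted p = 0.00985), a call that was lost without R1 FW1 (adjusted p = 0.0598). LOC_Os03g17870 had 1602, 1389 and 1322 FPKM in SR86 SW, 6819, 5616 and 6792 FPKM in SR86 FW and 5229.9, 5639.9 and 4891 FPKM in R1 FW, a log2 fold change of -1.87 (standard error 0.24, adjusted p = 0.002). The SR86 FW libraries were near the R1 FW libraries in the second locus and near the SW libraries or above them in the first.

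Thaumatins and chitinases, secreted proteins of defence, fell more often than they rose. Of 21 thaumatins and PR5 proteins, pathogenesis-related proteins of the apoplast, 11 fell and 4 rose (median log2 fold change -1.21). Their sum was 537, 836 and 1296 FPKM in SR86 SW, 2763, 2216 and 4703 FPKM in SR86 FW, and 4464, 3679 and 4987 FPKM in R1 FW. LOC_Os12g43380 had 1, 0.98 and 5.38 FPKM in SR86 SW, 2.08, 0.76 and 2.11 FPKM in SR86 FW and 347, 232 and 436 FPKM in R1 FW, a log2 fold change of -7.12 (standard error 0.56, adjusted p = 0.000331). Of the 6 tested thaumatins numbered LOC_Os12g43 on chromosome 12, 5 fell and 1 rose. This group was picked after the values were seen, and LOC_Os12g43380 is 1 of the 5 falls. LOC_Os12g43430, named after its values were seen, had 117, 180.3 and 273 FPKM in SR86 SW, 1087, 947 and 1918 FPKM in SR86 FW and 1196, 1041 and 1326 FPKM in R1 FW, a log2 fold change of -2.72 (standard error 0.31, adjusted p = 0.00128). LOC_Os12g43410 was the rise, with 81.01, 117 and 206 FPKM in SR86 SW, 709, 612 and 1196 FPKM in SR86 FW and 11.5, 8.95 and 20.9 FPKM in R1 FW, a log2 fold change of 3.23 (standard error 0.42, adjusted p = 0.00222). Within this group the SR86 FW libraries were thus near 0, like SW, in LOC_Os12g43380, near R1 in LOC_Os12g43430 and above both in LOC_Os12g43410. Rises in the list numbered 2 without SR86 SW1 or R1 FW1. Reads shared between such neighbouring copies were split by the counting, so the values of single copies are uncertain.

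Chitinases, which cut the chitin of fungal walls, fell in 5 of 9 and rose in 2. CHIT3 (LOC_Os04g41680) had 0, 0.05 and 0.07 FPKM in SR86 SW, 0.17, 0 and 0.14 FPKM in SR86 FW and 16.3, 10.98 and 17.5 FPKM in R1 FW, a log2 fold change of -4.81 (standard error 0.21, adjusted p = 3.4e-05). CHIT17 (LOC_Os05g33130), the most abundant chitinase of R1 and named after its values were seen, had 96.2, 239 and 259 FPKM in SR86 SW, 486, 331 and 496 FPKM in SR86 FW and 855, 875 and 875 FPKM in R1 FW, a log2 fold change of -2.26 (standard error 0.37, adjusted p = 0.00544). CHIT4 (LOC_Os03g30470) rose, with 24.2, 20.8 and 12.3 FPKM in SR86 SW, 7.01, 12.8 and 6.47 FPKM in SR86 FW and 1.95, 1.97 and 1.12 FPKM in R1 FW, a log2 fold change of 3.14 (standard error 0.29, adjusted p = 0.00063). The family thus held changes in both directions, with its sum lower in every SW library (175, 317 and 351 FPKM in SR86 SW, and 1071, 1059 and 1121 FPKM in R1 FW). With any 1 library other than SR86 SW3 left out, the rises numbered 1 and the falls 4. Glutathione S-transferases, which conjugate toxins and oxidised lipids to glutathione, fell in 23 of 44 and rose in 9 (median log2 fold change -1.16, 72.7% called). LOC_Os01g27210 had 7.16, 7.75 and 7.81 FPKM in SR86 SW, 12.4, 10.2 and 10.6 FPKM in SR86 FW and 95.99, 93.2 and 101 FPKM in R1 FW, a log2 fold change of -3.59 (standard error 0.08, adjusted p = 4.33e-06). LOC_Os01g72140, named after its values were seen, had 69.4, 65.7 and 73.2 FPKM in SR86 SW, 148, 271 and 249.5 FPKM in SR86 FW and 295, 296 and 293 FPKM in R1 FW, a log2 fold change of -2.08 (standard error 0.08, adjusted p = 2.64e-05). Both loci varied little within SR86 SW and within R1 FW, and neither overlapped. LOC_Os01g55830, an abundant member named after its values were seen, had 599, 845 and 380 FPKM in SR86 SW and 329, 366 and 295 FPKM in R1 FW. It was above R1 in each SW library but not called (a log2 fold change of 0.81, standard error 0.29, adjusted p = 0.0696). The rises in the list numbered 4 without R1 FW3 and 5 without SR86 SW1 or SR86 SW2.

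Oxidative and detoxifying enzymes otherwise split. Respiratory burst oxidases, which make superoxide at the plasma membrane, were higher in 3 of 4 and lower in 1. LOC_Os01g61880 had 8.1, 6.65 and 3.56 FPKM in SR86 SW, 0.91, 1.43 and 1.39 FPKM in SR86 FW and 1.25, 1.1 and 0.96 FPKM in R1 FW, a log2 fold change of 1.98 (standard error 0.29, adjusted p = 0.00351). LOC_Os12g35610 was the lower one, with 4.7, 6.68 and 4.15 FPKM in SR86 SW, 0.53, 0.12 and 7.72 FPKM in SR86 FW and 13.5, 10.7 and 13.1 FPKM in R1 FW, a log2 fold change of -1.21 (standard error 0.19, adjusted p = 0.00464), a call that was lost in a fit of all 9 libraries. Of 98 cytochrome P450 loci, enzymes of secondary metabolism and hormone turnover, 29 rose and 26 fell. LOC_Os10g08319 was the largest rise among them (a log2 fold change of 4.49, standard error 0.35, adjusted p = 0.000311) and LOC_Os10g05020 the largest fall (a log2 fold change of -2.53, standard error 0.13, adjusted p = 6.17e-05). UDP-glycosyltransferases, which attach sugars to small molecules, rose in 15 and fell in 14 of 56, and thioredoxins and glutaredoxins fell in 5 and rose in 1 of 17. Terpene synthases, which make volatile and defence compounds, fell in 4 and rose in 1 of 7, with 1 fall without R1 FW1 or R1 FW3 and 2 falls without SR86 SW1 or SR86 SW2. Thionins and defensins together rose in 3 and fell in 2 of 12, the rises numbering 1 without SR86 SW1 or any 1 of the R1 FW libraries and 5 without SR86 SW3.

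Receptors of the immune system differed in both directions. Of 137 disease resistance proteins, intracellular receptors with nucleotide-binding and leucine-rich repeat domains, 60 rose and 24 fell (median log2 fold change 0.79, 61.3% called). The list median in SR86 SW1, SW2 and SW3 was 0.79, 0.66 and 0.77 above the R1 FW mean on the log2 scale, so the SW replicates stood together. In SR86 FW1, FW2 and FW3 it was -0.59, -0.53 and -0.29, so SR86 in fresh water lay below R1 FW. LOC_Os10g04674 (RPM1) had 25.3, 26.4 and 34.1 FPKM in SR86 SW, 10.6, 13.1 and 17.8 FPKM in SR86 FW and 0.05, 0.06 and 0.02 FPKM in R1 FW, a log2 fold change of 5.73 (standard error 0.16, adjusted p = 7.6e-06). LOC_Os11g11950 (RPM1) and LOC_Os11g11940 (MLA10) carry neighbouring numbers and were named after their values were seen. They had 19.2, 17.3 and 17.5 FPKM and 16.7, 15.9 and 18.9 FPKM in SR86 SW, and 0.07, 0.06 and 0.03 FPKM and 0.02, 0.03 and 0 FPKM in R1 FW. LOC_Os11g15670 was the largest fall, listed at 0 in SR86 SW and at 11.5, 10.1 and 11.2 FPKM in R1 FW. Receptor-like kinases, which sense peptides, wall fragments and microbes at the cell surface, rose in 65 and fell in 24 of 185 (48.1% called, near the share of annotated loci). Relative to the R1 FW mean, their median was 0.39, 0.39 and 0.47 in SR86 SW and -0.85, -0.82 and -0.46 in SR86 FW. LOC_Os02g12010 had 14.3, 12.4 and 24.6 FPKM in SR86 SW, 3.65, 5.55 and 12.5 FPKM in SR86 FW and 0.24, 0.21 and 0.12 FPKM in R1 FW, a log2 fold change of 4.61 (standard error 0.27, adjusted p = 0.000105).

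Loci of abscisic acid, the hormone of drought and salt responses, were lower more often than higher. Of 21 loci, 10 fell and 3 rose (median log2 fold change -0.94, 61.9% called), and after quantile normalization 13 fell and 1 rose. A split by annotation, made after the values were seen, gave 3 falls among 5 loci annotated as 9-cis-epoxycarotenoid dioxygenase, the enzyme of the committed step of synthesis. LOC_Os12g42280 of these, named after its values were seen, had 5.83, 6.03 and 6.38 FPKM in SR86 SW, 30.99, 18.3 and 7.11 FPKM in SR86 FW and 34.2, 28.6 and 36.2 FPKM in R1 FW, a log2 fold change of -2.34 (standard error 0.11, adjusted p = 5.87e-05). Protein phosphatases 2C, some of which hold back abscisic acid signalling, fell in 5 of 7 and rose in 1. LOC_Os02g38780, named after its values were seen, had 1.36, 2.19 and 2.09 FPKM in SR86 SW, 2.89, 2.44 and 2.05 FPKM in SR86 FW and 9.57, 9.43 and 8.04 FPKM in R1 FW, a log2 fold change of -2.01 (standard error 0.18, adjusted p = 0.000564). Abscisic stress-ripening proteins, small hydrophilic proteins, went both ways, 2 of 5 rising and 2 falling. LOC_Os04g34600 had 72.5, 15.5 and 18.6 FPKM in SR86 SW, 2.26, 1.31 and 12.97 FPKM in SR86 FW and 2.14, 1.97 and 2.07 FPKM in R1 FW, a log2 fold change of 3.46 (standard error 0.55, adjusted p = 0.00471). LOC_Os01g72900 had 11.6, 9.06 and 14.5 FPKM in SR86 SW, 44.4, 28.5 and 32.7 FPKM in SR86 FW and 71.9, 72.3 and 65.9 FPKM in R1 FW, a log2 fold change of -2.55 (standard error 0.17, adjusted p = 0.000162).

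Late embryogenesis abundant proteins and dehydrins protect proteins and membranes when water is short, and their list includes the abscisic stress-ripening loci. It held 7 rises and 4 falls among 23 loci. Of 5 dehydrins 1 rose and 1 fell. The rise, LOC_Os03g45280, named after its values were seen, had 260.2, 223 and 152 FPKM in SR86 SW, 242, 221 and 90.2 FPKM in SR86 FW and 70.02, 88.6 and 56.6 FPKM in R1 FW, a log2 fold change of 1.54 (standard error 0.24, adjusted p = 0.00464). Of 6 loci annotated as late embryogenesis abundant, 0 rose and 1 fell. The rises of the list numbered 4 without any 1 of the R1 FW libraries, and after quantile normalization the list held 6 rises and 7 falls. Heat shock proteins, the chaperones of denatured proteins, rose in 11 of 40 and fell in 7, or rose in 7 without SR86 SW2 and in 6 without R1 FW3. LOC_Os03g16040, a small heat shock protein with an hsp20 domain, had 39.3, 50.1 and 30.8 FPKM in SR86 SW, 40.1, 35.4 and 34.4 FPKM in SR86 FW and 5.28, 5.73 and 6.45 FPKM in R1 FW, a log2 fold change of 2.66 (standard error 0.19, adjusted p = 0.00021). Proline and trehalose are solutes that cells gather against osmotic stress. LOC_Os10g40360, a proline oxidase, which breaks proline down, had 17.8, 29.5 and 39.96 FPKM in SR86 SW, 111, 52.9 and 52.98 FPKM in SR86 FW and 105, 92.2 and 118 FPKM in R1 FW, a log2 fold change of -1.90 (standard error 0.28, adjusted p = 0.00367). The trehalose phosphatase LOC_Os12g32130 had 3.58, 8.48 and 11.9 FPKM in SR86 SW, 8.43, 10.1 and 7.6 FPKM in SR86 FW and 0.36, 0.54 and 0 FPKM in R1 FW, a log2 fold change of 3.33 (standard error 0.47, adjusted p = 0.00299).

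Transcription factor families split as well. WRKY factors, regulators of defence, rose in 6 and fell in 7 of 25. WRKY82 (LOC_Os05g14370) had 82.7, 33.03 and 97.4 FPKM in SR86 SW, 4.23, 1.23 and 3.68 FPKM in SR86 FW and 9.75, 8.05 and 12.7 FPKM in R1 FW, a log2 fold change of 2.63 (standard error 0.41, adjusted p = 0.00439). WRKY22 (LOC_Os01g60490) was the largest fall of the family, with 0.06, 0.07 and 0.29 FPKM in SR86 SW, 1.6, 0.26 and 0.31 FPKM in SR86 FW and 4.81, 4.65 and 4.95 FPKM in R1 FW, a log2 fold change of -3.07 (standard error 0.19, adjusted p = 0.000132). AP2 and ERF factors, among them regulators of ethylene and drought responses, rose in 7 of 17 and fell in 1, with 4 rises without R1 FW1 and after quantile normalization. LOC_Os02g13710, annotated as the ERF factor TINY, had 5.66, 5.19 and 2.39 FPKM in SR86 SW and 0.3, 0.49 and 0.57 FPKM in R1 FW, a log2 fold change of 2.30 (standard error 0.32, adjusted p = 0.00284). NAC factors rose in 6 and fell in 3 of 14, the rises numbering 3 without R1 FW1 and 2 without R1 FW3. MYB factors rose in 5 and fell in 9 of 30, with 8 and 10 without SR86 SW3 and 3 and 8 without R1 FW3. Homeobox leucine zipper factors rose in 6 and fell in 4 of 15, with 3 rises without SR86 SW2, R1 FW1 or R1 FW3. The bZIP factors, among them regulators of abscisic acid responses, rose in 4 and fell in 2 of 20, with 1 rise without SR86 SW1, SR86 SW2, R1 FW1 or R1 FW2.

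Pentatricopeptide repeat (PPR) proteins, which edit and process the RNA of mitochondria and plastids, had the lowest share called of the 49 lists. Of 92 loci, 2 rose and 1 fell (3.26%). The list median was 0.13, -0.13 and 0.20 on the log2 scale in SR86 SW1, SW2 and SW3, and -1.21, -1.05 and -0.65 in SR86 FW1, FW2 and FW3, in each case relative to the R1 FW mean. The listed PPR loci were thus close together in SR86 SW and R1 FW, with SR86 FW below both. They entered the list through comparisons with SR86 FW, so this position is not a result about the family. That position of SR86 FW was not particular to PPR proteins. In SR86 FW1, FW2 and FW3 the median of transposon proteins was -1.02, -1.03 and -0.68, and that of ribosomal proteins 1.24, 1.24 and 0.87. PPR calls were few under every setting run, at most 5 rises (without SR86 SW2) and 2 falls (after quantile normalization). Ribosomal proteins rose in 7 and fell in 3 of 49, or rose in 4 and fell in 2 without SR86 SW1. Retrotransposon proteins fell in 69 and rose in 42 of 198 (56.1% called). LOC_Os02g45040 had 0.24, 0.56 and 1.3 FPKM in SR86 SW, 1.51, 0.58 and 0.72 FPKM in SR86 FW and 84.5, 69.4 and 91.9 FPKM in R1 FW, a log2 fold change of -6.19 (standard error 0.32, adjusted p = 6.98e-05). LOC_Os04g22080 had 12.3, 33.04 and 194 FPKM in SR86 SW, 52.3, 19.5 and 173 FPKM in SR86 FW and 0.07, 0.16 and 0 FPKM in R1 FW, a log2 fold change of 6.25 (standard error 0.91, adjusted p = 0.00345). In both loci the 2 SR86 groups were on the same side of R1. Transposon proteins rose in 33 and fell in 37 of 110.

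Loci present in one group only formed 2 sets. In 100 loci every SR86 SW library was listed at 0 and every R1 FW library had at least 1 FPKM, and 60 of them were also at 0 in all SR86 FW libraries. In 131 loci every SR86 SW library had at least 1 FPKM and every R1 FW library was listed at 0, and 64 of them had at least 1 FPKM in all SR86 FW libraries, while 2 were at 0 there. The levels were low in most of these loci, with a median of 2.84 FPKM in R1 FW in the first set and of 3.55 FPKM in SR86 SW in the second. Above 10 FPKM stood 15 loci of the first set and 14 of the second. Only 71 of the 100 loci and 81 of the 131 carried any annotation. Of these, 18 and 8 were annotated as transposable elements, and 2 and 7 as disease resistance proteins. Among all 6246 annotated loci tested, 198 were retrotransposon proteins, 110 transposon proteins and 137 disease resistance proteins. Among the loci over 10 FPKM, LOC_Os09g13954, without a function in the annotation, was listed at 0 in all SR86 libraries and had 30.7, 33.3 and 29.8 FPKM in R1 FW. LOC_Os12g14580, a tetraspanin (a membrane protein that organises others), had 10.2, 25.4 and 43.3 FPKM in SR86 SW and 2.97, 0.36 and 0.78 FPKM in SR86 FW and was listed at 0 in R1 FW. By the depth estimates SW1 and SW3 were deeper than every R1 library, while SW2 (1.75) was close to R1 FW2 (1.67). If these rough estimates hold, a value of 0 in R1 FW mostly rests on fewer reads than one in SR86 SW. The part of depth in the second set was not tested.

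By chromosome, the share of loci called higher ran from 10.4% on chromosome 2 to 16.3% on chromosome 11, and the share called lower from 5.24% on chromosome 2 to 10.5% on chromosome 11. Chromosomes 10, 11 and 12 had the 3 largest shares called in all, at 22.5%, 26.7% and 23.9%. In the order of locus numbers among the loci tested, there were 419 runs of at least 2 higher loci and 205 runs of at least 2 lower ones. With 12.3% of all loci called higher and 7.31% lower, such runs also occur where calls are scattered. How many would occur in that way was not computed. The longest higher run had 7 loci, LOC_Os11g44960 to LOC_Os11g45090, of which 5 are annotated as NBS-LRR or NB-ARC proteins, the domains of disease resistance receptors. Its member LOC_Os11g44970 had 5.45, 8.09 and 10.5 FPKM in SR86 SW and 4.89, 2.6 and 2.43 FPKM in SR86 FW, and was listed at 0 in R1 FW. Runs of 6 included LOC_Os10g31680 to LOC_Os10g31740, which holds 4 glycine-rich wall proteins, and LOC_Os02g06754 to LOC_Os02g06820, which has no annotation. LOC_Os10g31680 and LOC_Os10g31710 lost their call without SR86 SW1, SR86 SW2, R1 FW1 or R1 FW3 (adjusted p up to 0.146), and LOC_Os02g06820 lost it without R1 FW1 (adjusted p = 0.0513). LOC_Os10g31690, one of these glycine-rich proteins, had 74.5, 62.3 and 34.2 FPKM in SR86 SW, 8.18, 3.59 and 5.98 FPKM in SR86 FW and 2.8, 3.47 and 3.22 FPKM in R1 FW, a log2 fold change of 3.90 (standard error 0.28, adjusted p = 0.000233).

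**Figure D5:**
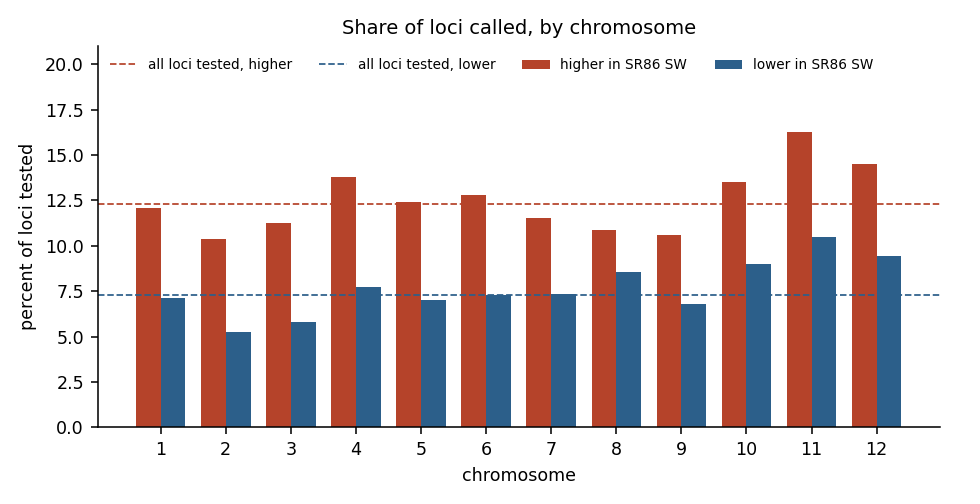
Bars give the percent of loci tested on each chromosome that were higher or lower in SR86 SW than in R1 FW, and the dashed lines the shares over all loci tested (12.3% and 7.31%). Chromosome 11 has the largest share in both directions, at 16.3% and 10.5%.

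The longest run of lower loci had 10 members, LOC_Os07g03288 to LOC_Os07g03610, of which 2 are annotated as SCP-like extracellular proteins, relatives of the pathogenesis-related protein PR1. LOC_Os07g03458 was listed at 0 in all SW libraries and had 52.4, 24.8 and 32.02 FPKM in SR86 FW and 12.8, 10.3 and 7.04 FPKM in R1 FW. LOC_Os07g03288 and LOC_Os07g03377 of this run had identical values in all 9 libraries, as had LOC_Os01g71549 and LOC_Os01g71599 of the next. Such a pair is 1 measurement, although both loci are counted in the run lengths and in the calls. Of all loci tested, 71 had the same 9 values as another, and 18 of these were called. In a fit of all 9 libraries 8 of the 10 members lost their call (adjusted p up to 0.465 in LOC_Os07g03610), and LOC_Os07g03409 and LOC_Os07g03458 did not, while LOC_Os07g03580 and LOC_Os07g03590 also lost it without R1 FW1 or R1 FW3. A run of 9, LOC_Os01g71474 to LOC_Os01g71670, starts and ends with family 17 glycosyl hydrolases. LOC_Os01g71630 in it had 0.17, 0.09 and 0.04 FPKM in SR86 SW, 95.7, 23.6 and 25.2 FPKM in SR86 FW and 117, 120.1 and 111 FPKM in R1 FW, a log2 fold change of -7.60 (standard error 0.12, adjusted p = 1.26e-06). A run of 8, LOC_Os08g08990 to LOC_Os08g09080, holds 6 cupin domain proteins, a fold shared by germin-like proteins of the apoplast. Its last member lost its call without any 1 of the R1 FW libraries (adjusted p up to 0.0733 in LOC_Os08g09080). LOC_Os08g09000 had 72.7, 127 and 80.98 FPKM in SR86 SW, 309, 498 and 543 FPKM in SR86 FW and 763, 820.0 and 704 FPKM in R1 FW, a log2 fold change of -3.06 (standard error 0.22, adjusted p = 0.000218). A run of 7, LOC_Os10g38314 to LOC_Os10g38489, holds 6 glutathione S-transferases and 1 receptor-like kinase. LOC_Os10g38360 in it lost its call without SR86 SW2 or any 1 of the R1 FW libraries (adjusted p up to 0.0644). LOC_Os10g38350 had 2.15, 1.34 and 1.2 FPKM in SR86 SW, 14.3, 39.03 and 23.3 FPKM in SR86 FW and 18.2, 16.1 and 14.3 FPKM in R1 FW, a log2 fold change of -3.04 (standard error 0.20, adjusted p = 0.000175). In this locus the SR86 FW libraries spanned the R1 level, whereas every SW library was below every other library.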

How the data were processed

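RNA from roots was read as stranded mRNA libraries, 9 in all, and the authors deposited 1 table of FPKM values, made per the submitters' processing notes with CASAVA 1.8, Bowtie2 and RSEM on the MSU rice transcripts. RSEM shares reads that fit several transcripts among them, so FPKM values of close copies, and of loci whose sequence differs in SR86, are uncertain. All 9 columns matched a labelled library and 0 were unmatched. One sentence of the study's methods gives strains and waters the other way round, and the labels were followed.

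The study's count test could not be run on FPKM. In its place limma 3.58.1 (R 4.3.3) with a variance trend was run on log2(FPKM + 0.5) of the 6 libraries, for nuclear loci with a mean of at least 0.5 FPKM, with Benjamini-Hochberg adjustment over all 23678 loci. Calls needed both a 2-fold difference and an adjusted p under 0.05, and fold changes on this scale understate changes of low loci. On simulated data for this comparison with 23678 loci and 200 changed ones, 32.8%, 77.6% and 93.9% of loci changed by 1, 2 and 3 on the log2 scale were called, with 8 false calls. These rates are not the sensitivity of the comparison itself. It had 4635 calls, and the adjustment is stricter where fewer loci change. Loci changed by 1 lie on the 2-fold threshold itself, and changed loci were drawn only from those above a minimum mean level.

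Members and lists were chosen with earlier results of these data known. Lists are keywords in the annotation text of the study's tables, of which 2 were held in part. Their fold changes and p-values were not used. Named loci were the 10 largest rises and falls with a function, the largest rise and fall of each list, the most abundant called loci, loci listed at 0 in 1 group, loci the study's text names and the members of the longest runs. Any other is said to be named after its values were seen. All splits of a list, by annotation or by locus number, were likewise made after the values were seen. Alternatives were another pseudocount (0.1 or 1), no filter or a filter at 1 FPKM, a replicate block, leaving out each library, a fit of all 9, and scaling by quantiles or by median-ratio factors. Whether replicates share a culture was not given in the sources used here beyond being biological replicates. Python 3.11.15 with pandas 2.3.3, numpy 2.4.6 and matplotlib 3.10.9 made the summaries.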

Additional observations from a re-analysis of the deposited data

How the results depend on the processing

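The number of called loci, 4635, ran between 3299 (without R1 FW replicate 1) and 5716 (without SR86 SW replicate 3) when 1 library was left out, and between 3843 and 5173 under the other settings, with 1 and 0.1 FPKM added. With no filter 4592 of 37882 loci were called. Of the called loci, 2967 were called in every fit with 1 library left out, 2594 the same way in every alternative that tested them, and 0 the opposite way in any. A replicate block gave 4811 calls. Whether the numbers pair the libraries cannot be told from these values. Deviations of same-numbered SR86 SW and R1 FW libraries correlated at -0.03, 0.26 and 0.28. SR86 SW1 correlated best with R1 FW2 (0.23), but SW2 and SW3 did so with the R1 FW library of the same number. Mitochondrial features had their lowest sum in replicate 3 of each group (244 FPKM in SR86 SW, 992 in SR86 FW and 222 in R1 FW). A structure shared by replicate number was not tested. Of 221 called loci named by rule or after their values were seen, 48 lost the call under at least 1 setting. The peroxidase LOC_Os01g22370, not called, ran between -0.13 (without SR86 SW replicate 2) and 0.079 (without SR86 SW replicate 3) on the log2 scale, and it was above 0 in 3 of these 6 fits. Depth limits low loci, and strain and water cannot be told apart in this comparison.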
